A study of Bos taurus with 6 samples.

Results

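The genes described here are 42 that encode sarcomere filament and Z-disc proteins, taken by symbol from a list of proteins: giant filaments, M-band and thick-filament proteins, myosin light chains, tropomyosins, Z-disc proteins, thin-filament ends, and repeat proteins and assembly factors. All 42 were found among 22839 gene symbols (23015 rows), each on a single row, and all 42 passed the filter on low counts that left 15039 rows to test. They were read in 6 RNA sequencing libraries of longissimus thoracis (LT) muscle, 1 library per steer, from Hanwoo (Korean native cattle) raised conventionally on commercial feed. The 3 steers with a high number of fine marbling particles (NFMP; the small fat flecks of the ribeye) were steer 3-8 at 32.5 months of age, 10-8 at 33.8 months and 10-9 at 34.5 months. The 3 low-NFMP steers were 3-1 at 37.8 months, 3-3 at 33.7 months and 10-16 at 35.4 months. The comparison asks which transcripts differ between muscle with many and with few fine marbling particles.

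The sarcomere is the contractile unit of striated muscle. Thin filaments of actin, wound with tropomyosin and troponin, are anchored at the Z-disc by alpha-actinin and slide along thick filaments of myosin that are held in register at the M-band, while titin runs from the Z-disc to the M-band as a molecular spring. Many of these proteins have separate slow-fibre and fast-fibre forms, so that the mix of forms follows the mix of fibre types in a muscle.

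The libraries held between 16283873 and 17192750 counted reads each, with at least 99.849% on the rows kept by the filter. The reads come from the 3′ ends of transcripts and the counts are not divided by length, so counts of different genes are not compared with each other. Values below are normalized read counts (reads brought to the average effective library size) and are given for the high-NFMP steers 3-8, 10-8 and 10-9 and then for the low-NFMP steers 3-1, 3-3 and 10-16. Fold changes are high over low NFMP on the log2 scale, called log2 changes and given with their standard error (SE) and the p of edgeR's quasi-likelihood test, adjusted by Benjamini-Hochberg over the 15039 rows. With 3 steers a group, an exact permutation p cannot go below 0.1, so each single gene rests on the spread that edgeR estimated. That spread was each gene's own, drawn towards the spread of the other genes. The biological coefficient of variation common to all tested rows was 25.1%. In whole muscle, fewer cells of a type and less RNA per cell cannot be told apart.

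In the fitted values all 42 sarcomere filament and Z-disc genes differed by less than 2-fold between high- and low-NFMP muscle. A change of over 2-fold at an unadjusted p below 0.05 was found in 0 of the 42, against 3.9% of the tested rows. By the unadjusted p alone 3 members passed, which is 7.14% of the members against 11.5% of all tested rows. All 3 were lower in the high-NFMP group (5.74% of all rows were lower at that p), and they were MYL3, MYOT and KLHL41. No member reached an adjusted p below 0.05, which 0.685% of the rows did, and the lowest adjusted p of a member was 0.145. With DESeq2, and with edgeR without a filter, MYL3 (1 member) was below 0.05 after adjustment. The high- and low-NFMP steers did not overlap in 5 members (11.9%, against 17.1% of all rows), with TPM1 above and MYL3, MYOZ3, MYOT and KLHL41 below in the high-NFMP group.

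**Figure D1:**
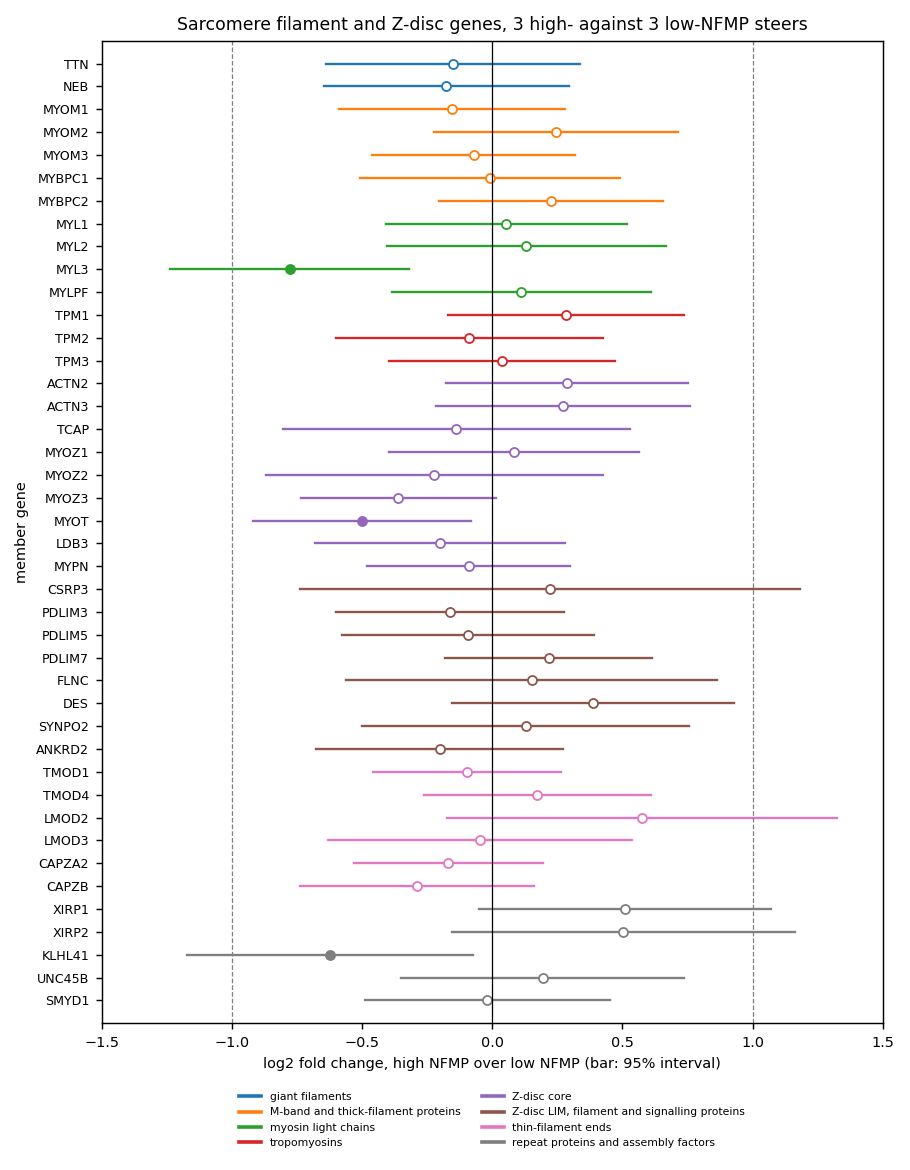
Log2 fold change of each of the 42 members, high over low NFMP (x axis), ordered by protein role (colours), with its 95% interval as a bar; filled points mark an unadjusted p below 0.05 and dashed lines mark a 2-fold change. MYL3, MYOT and KLHL41 have intervals wholly below 0, and the points of the other 39 members have intervals that cross 0.

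The intervals show how large a difference these 6 steers allow. The 95% interval of the log2 fold change lay inside 2-fold in both directions for 36 members (85.7%), against 57.3% of all tested rows. The 6 exceptions were MYL3, CSRP3, LMOD2, XIRP1, XIRP2 and KLHL41. The tested rows include genes with far fewer reads than any member, such as MYBPHL at 6 to 42 reads a steer. TCAP, the member with the fewest, had 149 to 444. Rows of like counts were not compared, so how far read number sets these shares, and those past 2-fold, was not tested. The log2 fold change was positive in 20 members and negative in 22, between -0.78 and 0.58, and under 0.25 in size in 30 of them. The median over the members was -0.01 and that over all tested rows was 0.02. The within-group SD of the log2 counts had a median of 0.289 over the members and 0.333 over all rows. It was smallest for TMOD1 (0.0507) and largest for CSRP3 (0.726).

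Myosin light chains stabilize the lever arm of the myosin head, and 1 of the 4 members of this group had an unadjusted p below 0.05, as did 11.5% of all tested rows. MYL3, the essential light chain of slow skeletal and ventricular muscle, was counted at 3009, 3233 and 3395 in the high-NFMP steers. In the low-NFMP steers it was counted at 6326, 6409 and 3799. The high-NFMP steers lay close together, and low-NFMP steer 10-16 lay nearer to them than to the other 2 low-NFMP steers, although no values overlapped. The means were 3212 ± 194 (SD, n = 3) and 5511 ± 1484 (SD, n = 3), with a log2 change of -0.78 (SE 0.21) or a ratio of 0.583 with a 95% interval of 0.424 to 0.800. The unadjusted p of edgeR was 0.00253 (adjusted p = 0.145). Among the 3 steers whose label begins with 10, the high-NFMP values 3233 and 3395 stood against 3799, and among those whose label begins with 3, 3009 stood against 6326 and 6409. Of all members, MYL3 alone had an unadjusted p below 0.05 in each of the 16 alternative fits. Its log2 fold change there ranged from -0.95 to -0.64 and its adjusted p from 0.0408 with DESeq2 to 0.453 with age as a term.

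The other 3 light chains did not pass the test. MYL1, the fast essential light chain, had 59018, 80425 and 86763 counts in the high-NFMP steers and 67472, 70839 and 79529 in the low-NFMP steers, a log2 change of 0.05 (SE 0.22, adjusted p = 0.945). MYL2, the slow regulatory light chain, had 61553, 87864 and 56227 against 54130, 50481 and 83290 (0.13, SE 0.25, adjusted p = 0.874). For MYL2, each group had 1 high steer, 10-8 with high and 10-16 with low NFMP, and the other 4 steers lay lower. MYLPF, the fast regulatory light chain, had 94568, 140228 and 150556 against 103017, 131571 and 122015 (0.11, SE 0.23, adjusted p = 0.885), with steer 3-8 the lowest of the 6.

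**Figure D2:**
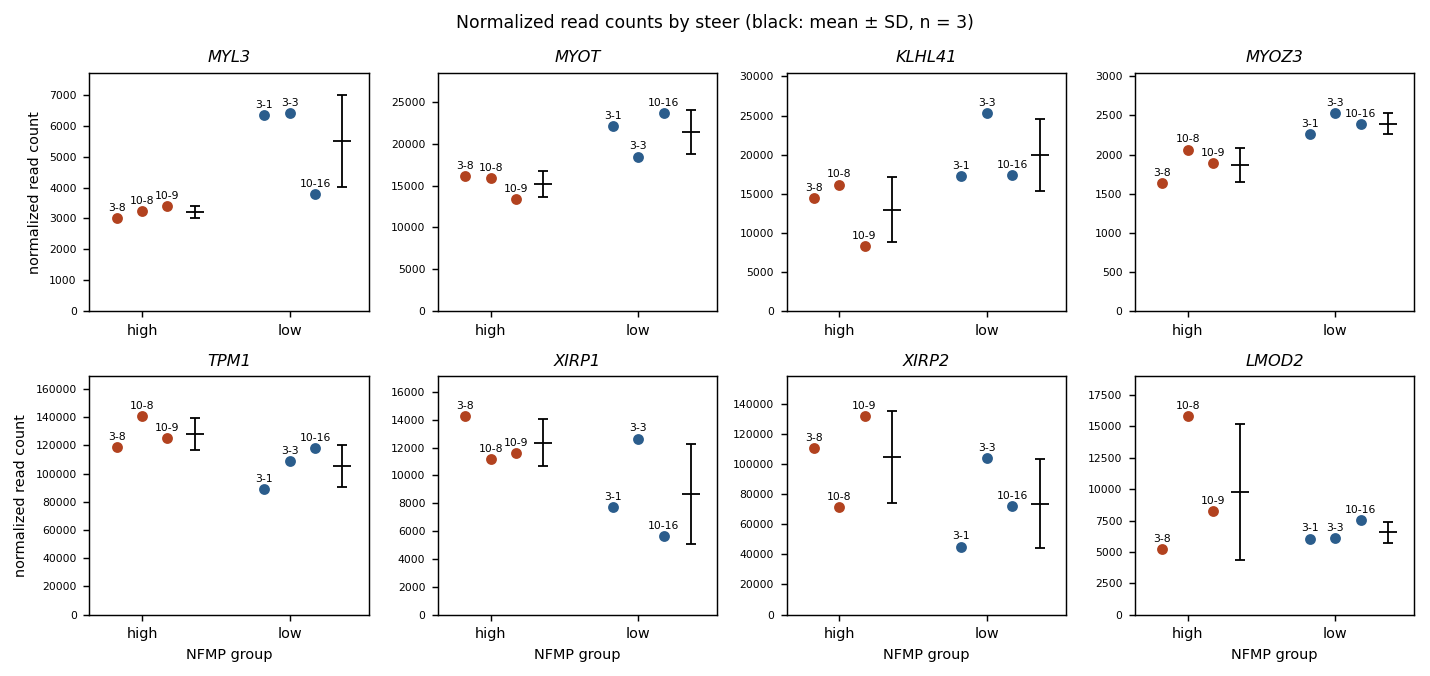
Normalized read count (y axes, from 0) of 8 members in each steer, labelled by its number, with high NFMP in red and low NFMP in blue and the mean ± SD of each group (n = 3) in black. The groups do not overlap for MYL3, MYOT, KLHL41, MYOZ3 and TPM1, and do overlap for XIRP1, XIRP2 and LMOD2, where 1 or more steers lie far from their group.

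The Z-disc core joins the thin filaments of neighbouring sarcomeres, and 1 of its 9 members had an unadjusted p below 0.05 (11.5% of all rows did). MYOT (myotilin, which cross-links actin and binds alpha-actinin and filamin) was counted at 16164, 15881 and 13346 in the high-NFMP steers and at 22073, 18454 and 23663 in the low-NFMP steers. All 3 high-NFMP steers lay below all 3 low-NFMP steers, with 10-9 lowest and 10-16 highest. The means were 15130 ± 1552 (SD, n = 3) and 21397 ± 2670 (SD, n = 3), a log2 change of -0.50 (SE 0.20, adjusted p = 0.341) with an unadjusted p of 0.0228. That p rose above 0.05 without steer 10-9, 3-1 or 10-16 and with age as a term, and the log2 fold change stayed between -0.60 and -0.39 whichever steer was left out.

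MYOZ3, the fast-fibre calsarcin, a family that tethers the phosphatase calcineurin to alpha-actinin, had 1637, 2065 and 1896 counts against 2263, 2533 and 2392. Its groups did not overlap, and its log2 fold change of -0.36 (SE 0.18, unadjusted p of 0.058, adjusted p = 0.459) did not pass the test, although it did with library totals in place of TMM factors (unadjusted p of 0.0253) and with the number before the hyphen of the steer's name as a term (unadjusted p of 0.039). The other fast calsarcin, MYOZ1, had 45681, 66965 and 70204 against 50888, 56506 and 65199 (0.08, SE 0.22, adjusted p = 0.910). The slow calsarcin MYOZ2 had 3837, 3043 and 1589 against 2387, 3825 and 3666 (-0.22, SE 0.30, adjusted p = 0.812). Without steer 10-9 the log2 change of MYOZ2 was 0.07, and with age as a term it was -0.76 (unadjusted p of 0.0276). The 3 calsarcins thus had different orders of steers, with 10-9 the highest for MYOZ1 and the lowest for MYOZ2.

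Alpha-actinin is the main cross-linker of the Z-disc. ACTN2, present in all fibres, had 11889, 14735 and 20309 counts against 13488, 11952 and 13028 (0.29, SE 0.22, adjusted p = 0.652). ACTN3, the fast-fibre form, had 5866, 9407 and 9466 against 5357, 8049 and 7088 (0.27, SE 0.23, adjusted p = 0.682). In both, steers 10-8 and 10-9 lay above the low-NFMP steers and steer 3-8 lay among them or below. TCAP (telethonin, which caps the amino-terminal ends of titin) was the member with the fewest reads, at 149 to 444 raw counts a steer, with 10-8 far below the others. LDB3 and MYPN, scaffolds of the Z-disc, had log2 fold changes of -0.20 (adjusted p = 0.767) and -0.09 (adjusted p = 0.878). For MYPN (myopalladin) the highest steer was only 1.206 times the lowest.

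Among the repeat proteins and assembly factors, 1 of 5 members had an unadjusted p below 0.05, against 11.5% of all rows. KLHL41, a kelch protein that stabilizes the thin-filament protein nebulin, was counted at 14452, 16175 and 8328 in the high-NFMP steers and at 17302, 25336 and 17351 in the low-NFMP steers. The groups did not overlap, but steers 10-8 and 3-1 differed little, and the distance between the means came mostly from the low value of 10-9 and the high value of 3-3. The means were 12985 ± 4124 (SD, n = 3) and 19997 ± 4625 (SD, n = 3), a log2 change of -0.62 (SE 0.26, adjusted p = 0.367) with an unadjusted p of 0.0286. Without steer 10-9 or 3-3, or with the number before the hyphen of the steer's name in the fit, the unadjusted p was above 0.05. The log2 fold change without 1 steer ranged from -0.79 to -0.37. With age as a term it was -0.94 (unadjusted p of 0.00832).

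The XIRP genes, whose actin-binding Xin repeats mark sites of myofibril repair and attachment, had positive log2 fold changes that did not pass the test. XIRP1 had 14264, 11181 and 11599 counts against 7725, 12651 and 5657 (0.51, SE 0.26, unadjusted p of 0.0718, adjusted p = 0.486). XIRP2 had 110556, 71217 and 131728 against 45151, 103907 and 72072 (0.50, SE 0.30, unadjusted p of 0.122, adjusted p = 0.564). In both genes the low-NFMP steer 3-3 had values within the high-NFMP range, and without it the unadjusted p of both was below 0.05 (log2 changes of 0.88 and 0.83). With age as a term the log2 changes were 0.21 and 0.16, with unadjusted p of 0.502 and 0.640, and with the number before the hyphen of the steer's name XIRP1 had 0.75 (unadjusted p of 0.0073). XIRP1 also passed without a filter on low counts, at 0.49 (unadjusted p of 0.0425). XIRP2 also passed without 10-8, at 0.75 (unadjusted p of 0.0349). Without steer 3-3, MYL3 and MYOT also kept an unadjusted p below 0.05 and KLHL41 did not. UNC45B, a myosin chaperone, and SMYD1, a methyltransferase needed for thick-filament assembly, had log2 fold changes of 0.19 (adjusted p = 0.809) and -0.02 (adjusted p = 0.981). Steer 10-8 was the highest for both, at 3912 for UNC45B and 1485 for SMYD1.

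The giant filaments did not pass the test, but NEB did after quantile normalization (log2 change -0.49, unadjusted p of 0.0377). TTN (titin) had 994448, 836427 and 943629 counts against 1009988, 925609 and 1145922, a log2 change of -0.15 (SE 0.23, adjusted p = 0.833). Its 95% interval, -0.64 to 0.34, lay inside 2-fold both ways, and the highest steer was 1.37 times the lowest. NEB (nebulin, which runs along the thin filament) had 200634, 139543 and 153426 against 181829, 195616 and 180274 (-0.18, SE 0.22, adjusted p = 0.797). The low-NFMP steers were close together for NEB, and the high-NFMP steers lay on both sides of them. TTN held 5.39 ± 0.758% (SD, n = 3) of the counts in the high-NFMP libraries and 6.23 ± 0.332% (SD, n = 3) in the low-NFMP libraries. The 42 members together held 13.9 ± 0.726% and 14.9 ± 0.817% (exact permutation test, two-sided, p = 0.2 for both shares), and without TTN the difference of the shares was -0.193 percentage points (exact permutation test, two-sided, p = 0.7).

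Tropomyosin lies along the thin filament and gates the access of myosin to actin. TPM1, the fast alpha form, was the only member with all high-NFMP steers above all low-NFMP steers, with 118528, 140722 and 124928 counts against 89004, 108537 and 118163. The gap was narrow, between steer 3-8 and steer 10-16, and the log2 fold change of 0.28 (SE 0.21, adjusted p = 0.648) did not pass the test. TPM2, the beta form, had 199816, 324902 and 235279 against 246956, 252340 and 308597 (-0.09, SE 0.24, adjusted p = 0.911). TPM3, the slow alpha form, had 22212, 31047 and 25765 against 24834, 23927 and 28297 (0.04, SE 0.20, adjusted p = 0.962). Steer 10-8 was the highest of the 6 for all 3 tropomyosins.

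In the M-band and the thick filament, 0 of 5 members had an unadjusted p below 0.05, against 11.5% of all tested rows. MYBPC1, the slow myosin-binding protein C that brakes cross-bridge cycling, had 46160, 58693 and 32935 counts against 49467, 39774 and 49420 (-0.01, SE 0.23, adjusted p = 0.993). MYBPC2, its fast form, had 33750, 41719 and 42361 against 29812, 36295 and 34579 (0.23, SE 0.20, adjusted p = 0.699). The myomesins MYOM1, MYOM2 and MYOM3, which cross-link thick filaments at the M-band, had log2 fold changes of -0.15, 0.24 and -0.07, with adjusted p between 0.703 and 0.904.

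None of the 6 proteins of the thin-filament ends had an unadjusted p below 0.05 (11.5% of all tested rows did). LMOD2, a leiomodin that lengthens thin filaments at the pointed end, had the highest log2 fold change of the members at 0.58 (SE 0.34, adjusted p = 0.558). Its counts were 5213, 15826 and 8278 in the high-NFMP steers and 6051, 6101 and 7517 in the low-NFMP steers. That value rested on steer 10-8, the highest by far, and without it the log2 fold change was 0.08, while steer 3-8 was the lowest of all 6. LMOD3, the skeletal leiomodin, had a log2 change of -0.05 (adjusted p = 0.962). The pointed-end caps TMOD1 and TMOD4 (tropomodulins) had -0.10 and 0.17, and TMOD1 was the steadiest member, between 3133 and 3599 counts in all 6 steers. The barbed-end caps at the Z-disc, CAPZA2 and CAPZB, had -0.17 and -0.29, with adjusted p of 0.741 and 0.637.

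Of the 8 LIM, filament and signalling proteins of the Z-disc, 0 had an unadjusted p below 0.05, against 11.5% of all tested rows. They included CSRP3, the member with the largest within-group SD. CSRP3 (muscle LIM protein, a Z-disc stress sensor) had 12471, 27274 and 39868 counts in the high-NFMP steers and 15063, 32885 and 20264 in the low-NFMP steers, so that the highest steer was 3.197 times the lowest. Its log2 fold change of 0.22 had a 95% interval of -0.74 to 1.18, so that a 2-fold increase lay inside it and a 2-fold decrease did not. FLNC (filamin C, which binds actin at the Z-disc and the membrane) had 12132, 14755 and 30176 against 13484, 22314 and 15603. CSRP3 and FLNC were both highest in 10-9 and lowest in 3-8. DES (desmin, the intermediate filament around the Z-disc) had 20087, 34942 and 43632 against 24661, 23878 and 26991 (0.39, SE 0.25, adjusted p = 0.599), with 10-8 and 10-9 above and 3-8 below all low-NFMP steers. SYNPO2, an actin-bundling protein, and ANKRD2, a stretch-responsive ankyrin protein, had log2 fold changes of 0.13 and -0.20. The PDZ-LIM scaffolds PDLIM3, PDLIM5 and PDLIM7 had -0.16, -0.09 and 0.22. The adjusted p of these 5 genes lay between 0.688 and 0.899.

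Slow and fast forms of the same protein, and ACTN2 (all fibres) with ACTN3 (fast fibres), were compared as a ratio of counts within each steer, which needs no scaling between libraries. None of the 6 pairs separated the groups, and no exact permutation test (two-sided, 3 against 3, smallest possible p 0.1) gave a p below 0.2, or 0.6 after adjustment over the 6 pairs. For MYL3 over MYL1 the log2 ratios were -4.29, -4.64 and -4.68 in the high-NFMP steers and -3.41, -3.47 and -4.39 in the low-NFMP steers. The mean ratio was 0.78 lower in log2 in the high-NFMP group (exact permutation p = 0.2), with low-NFMP steer 10-16 inside the high-NFMP range. For TPM3 over TPM1 the difference was -0.26 (exact permutation p = 0.2) and for MYBPC1 over MYBPC2 it was -0.27 (exact permutation p = 0.5). For MYOZ2 over MYOZ1 it was -0.35 (exact permutation p = 0.7), where the high-NFMP steers 3-8 and 10-9 were the highest and the lowest of the 6. Without steer 10-9 the difference for MYOZ2 over MYOZ1 turned positive, and that for MYBPC1 over MYBPC2 nearly vanished. The differences for MYL2 over MYLPF (0.05) and ACTN2 over ACTN3 (-0.0043) were smaller than their SDs of 0.448 and 0.242 in the high-NFMP group. A ratio of both slow light chains, MYL3 over MYL2, was added after the values were seen, and was 0.88 lower in log2 in the high-NFMP group (exact permutation p = 0.3), with overlapping groups.

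**Figure D3:**
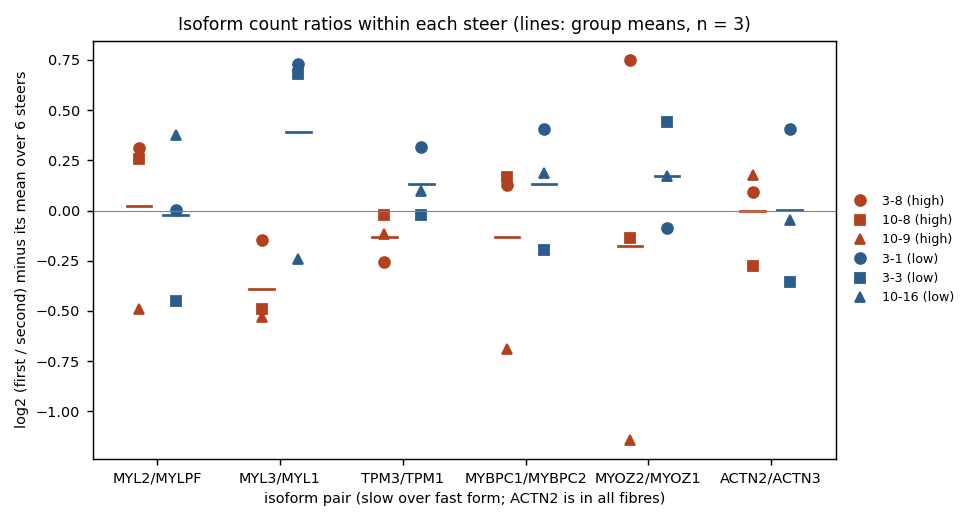
Log2 ratio of the first to the second member of 6 isoform pairs (slow over fast form, except that ACTN2 is present in all fibres) within each steer, minus the mean over the 6 steers (y axis), with high NFMP in red, low NFMP in blue, a marker shape per steer and group means (n = 3) as lines. The groups overlap in all 6 pairs, and the lowest value for MYL3/MYL1, MYBPC1/MYBPC2, MYOZ2/MYOZ1 and MYL2/MYLPF belongs to steer 10-9.

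For each member the steers with the highest and the lowest value were counted, and the variation was not split by steer. Steer 3-8 was the lowest of the 6 in 18 of the 42 members and the highest in 3, and its median deviation from the gene means was -0.22 in log2. Steer 10-9 was the highest in 14 members and the lowest in 10, and 10-8 the highest in 10 and the lowest in 4. Of the low-NFMP steers, 3-1 was the highest in 0 members and the lowest in 6. Steer 3-3 was the highest in 9 and the lowest in 3, and 10-16 the highest in 6 and the lowest in 1. The median deviations of the steers other than 3-8 lay between -0.06 and 0.15.

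**Figure D4:**
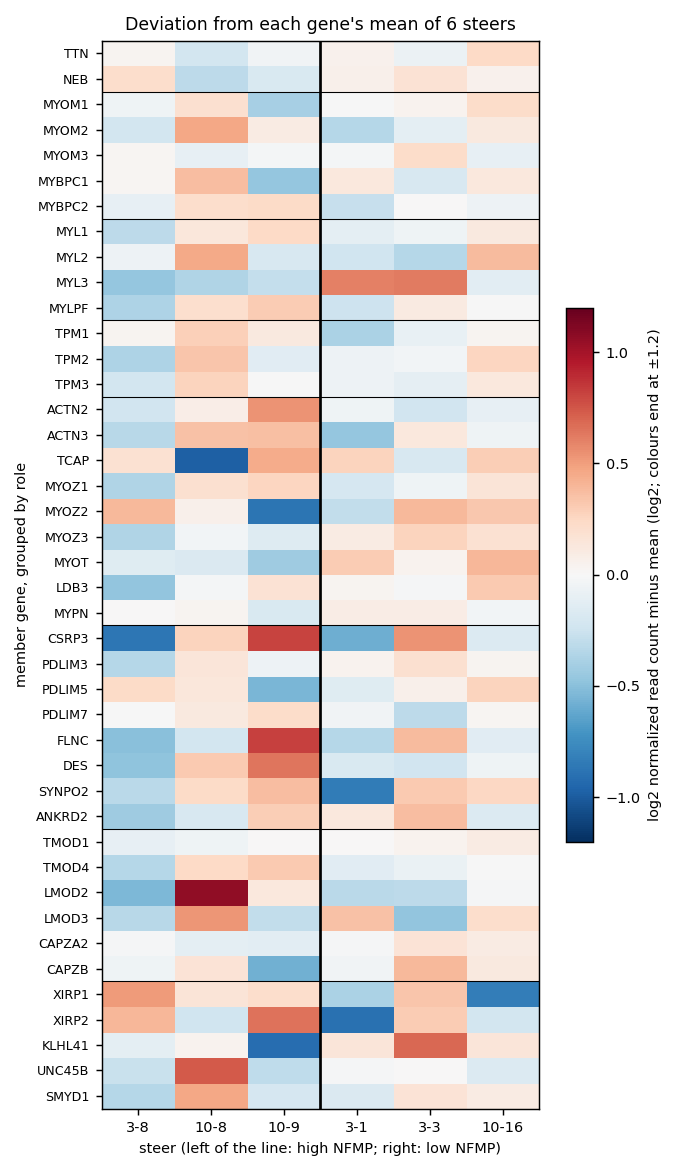
Log2 deviation of each member (rows, grouped by role) from its mean over the 6 steers (columns; high NFMP left of the thick line, low NFMP right of it), red above and blue below the mean. Steer 3-8 is below the mean for most members, MYL3 is red in steers 3-1 and 3-3 only, and single cells stand out, such as LMOD2 in 10-8 (1.06), TCAP in 10-8 (-0.98) and KLHL41 in 10-9 (-0.91).

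Steer 3-8 also stood apart in markers of adipocytes. The summed count of 8 adipocyte markers was 11989 there, against 5155 and 6912 in the other high-NFMP steers and 4877 to 6187 in the low-NFMP steers, and 4 of the 8 (ADIPOQ, CIDEC, CIDEA and PLIN4) were higher in the high-NFMP group at an unadjusted p below 0.05, as were 862 of the 15039 tested rows. The summed count of 12 skeletal muscle fibre markers was lowest in 3-8, at 769330, with 811367 in 3-1 and 867609 in 3-3. It was highest in 10-8, at 1323410. Of the 12 markers 0 had an unadjusted p below 0.05, against 11.5% of all tested rows. The part of these markers in the members' values was not tested. Without steer 3-8, 7 members had an unadjusted p below 0.05, which is 16.7% of the members against 15.3% of the 15417 rows then tested. MYL3, MYOT and KLHL41 were again lower, with log2 fold changes of -0.74, -0.55 and -0.71. The 4 others were higher: ACTN2 (0.45), ACTN3 (0.46), DES (0.64) and LMOD2 (0.88). The adjusted p of these 7 genes lay between 0.178 and 0.307.

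Of the other marker lists, the summed levels of all overlapped between the groups. In each of fibroblast and preadipocyte, endothelium and leukocyte lists 1 marker had an unadjusted p below 0.05, PDGFRA (lower) and CLDN5 and AIF1 (both higher in the high-NFMP group), and 0 did among the tested markers of the smooth muscle (6 of 6 tested), satellite cell (2 of 4) and red blood cell (1 of 4) lists. Of the satellite cell markers, MYF5 was removed by the filter (39, 26 and 10 raw counts against 7, 6 and 1), and MYOD1 and CDH15 had log2 changes of -0.23 and -0.11. All 12 skeletal muscle markers were abundant, at 8919 counts or more in every steer, as the tissue label says. Of the cardiac list, MYH6 was counted at 926 to 1914 and TNNT2, the cardiac troponin T, at no more than 7.09. The cardiac list had 0 markers at an unadjusted p below 0.05, which 11.5% of all tested rows had.

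The rest of the sarcomere was read from a list of 61 further genes, of which 57 were tested. Here 6 had an unadjusted p below 0.05, a share no higher than the 11.5% of all tested rows, of which 5 were higher with high NFMP and 1 was lower, and MYBPHL (1 gene) also passed the 2-fold threshold. With age as a term 2 of these genes had an unadjusted p below 0.05, as did 8.38% of all tested rows. MYBPH then passed the 2-fold threshold in place of MYBPHL. None reached an adjusted p below 0.05, with a lowest value of 0.210. Their median log2 fold change was 0.06. KBTBD12, a kelch protein, had 1229, 550 and 833 counts against 498, 524 and 297, a log2 change of 0.99 (SE 0.29, adjusted p = 0.210). The high-NFMP steers all lay above the low-NFMP steers, with 10-8 close to 3-3. ANKRD1, a titin-binding stress-responsive ankyrin protein, had 46227, 55380 and 32091 against 16774, 39446 and 24667 (0.73, SE 0.30, adjusted p = 0.379), with 3-3 inside the high-NFMP range. SORBS2, a Z-disc adaptor, was also higher (0.58, adjusted p = 0.407). MYBPHL (1.57, SE 0.56, adjusted p = 0.285) was counted at only 6 to 42 reads a steer. LRRC39, an M-band protein, had 1718, 1351 and 1279 against 1899, 1894 and 2015, a log2 change of -0.42 (SE 0.18, adjusted p = 0.400), without overlap.

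Other slow-fibre genes were set beside MYL3. MYH7, the slow myosin heavy chain that carries this light chain, had 30652, 65355 and 56592 counts in the high-NFMP steers and 34478, 38331 and 49408 in the low-NFMP steers, a log2 change of 0.32 (unadjusted p of 0.252). The slow troponins TNNT1, TNNC1 and TNNI1 had log2 fold changes of 0.20, 0.06 and -0.20, and MYL6B, a further essential light chain of slow muscle, had -0.36; none of these 4 passed. The pattern of MYL3, low in all 3 high-NFMP steers and in 10-16, was not that of MYH7, which was lowest in steers 3-8 and 3-1.

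The methods name both unique and multiple alignments for the comparison of groups, so genes that share or overlap sequence may share reads, and the sources used here do not state a strand for the counting. In RefSeq's genes for ARS-UCD2.0, where all 42 members were matched, 14 members had an overlapping gene and MYL3 and KLHL41 had none. MYOT overlapped KLHL3, which had 40 to 68 reads a steer. TTN overlapped the noncoding gene LOC112442546, which had 283129 to 416450 reads a steer and a log2 change of 0.07 (adjusted p = 0.928). MYOZ2 and SYNPO2 overlapped the noncoding gene LOC101906469, which had 9724 to 20228 reads a steer. MYOZ2 itself had 1584 to 4134. Double counting of reads on such pairs was not tested.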

How the data were processed

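LT muscle of 3 high-NFMP and 3 low-NFMP steers was analysed, with groups taken from the sample labels. Libraries were made from mRNA 3′ ends, and the deposited values are raw read counts per gene symbol, without normalization. Their methods give Tophat2 with HTSeq (UMD3.1) for mapping and counting, and elsewhere Bowtie2 alignment, so the step behind these counts is not settled, and no strand setting is stated. Replicates are separate steers.

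The whole table was fitted with edgeR 4.0.16 (R 4.3.3), using its default filter (minimum count 10, minimum total 15), TMM factors (0.916 to 1.083), robust dispersions and the quasi-likelihood test, with Benjamini-Hochberg adjustment over 15039 rows. The 95% intervals use edgeR's total degrees of freedom, which add to the residual ones those borrowed from the spread over all genes. Ratios used a pseudocount of 0.5 and two-sided exact permutation tests. PCR reads that carry no molecular identifier do not count independent molecules. The fits were tested on simulated data.

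The members and lists (other sarcomere genes, markers of 9 cell types) were chosen with earlier results of these data known. Given per steer were members with an unadjusted p below 0.05 or groups that did not overlap, the 3 highest and 3 lowest log2 fold changes, the 5 members with the most counts and the isoform pairs; of the other sarcomere genes and markers, those with an unadjusted p below 0.05 were named, except 1 not reported here. Other genes in the text were picked once values were known. MYH13, NPPA, NPPB and PAX7 were not analysed here. Alternatives were RLE factors, library totals, TMM without the members, no filter, a minimum of 10 counts per library, DESeq2 1.42.0, quantile normalization of log2(count + 1) with limma 3.58.1, repeated symbols summed, age or the number before the hyphen of the steer's name as a term, and leaving out each steer.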

Additional observations from a re-analysis of the deposited data

How the results depend on the processing

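In all 16 alternative fits 0 members passed the 2-fold threshold at an unadjusted p below 0.05, and the median log2 fold change of the members lay between -0.11 (quantile normalization) and 0.12 (without steer 3-8). Members with an unadjusted p below 0.05, 3 in the text, numbered between 1 (without 10-9) and 7 (without 3-8) when a steer was left out. The share of all tested rows at that p was 11.5% in the text, 10.2% without 10-9 and 15.3% without 3-8. Members at an adjusted p below 0.05 numbered 1, MYL3, without a filter and with DESeq2, and 0 in the other fits. The other sarcomere genes past the p and fold change threshold numbered 2 without a filter (MYBPHL and KBTBD13), 0 with at least 10 counts in every library, 2 with the number before the hyphen of the steer's name as a term (MYBPHL and KBTBD12) and 0 to 3 when a steer was left out (0 without 3-8, 3 without 10-9). The difference in the share of counts held by the members was -1.03 percentage points, -0.193 without TTN, and between -1.505 and -0.68 when a steer was left out. Isoform pairs whose groups did not overlap numbered 0 to 2 when a steer was left out (2 without 3-8 or 3-3). All 42 members were tested in every fit, and signs were compared for the 21 chosen by the rule for values per steer. Of these 21, TTN, MYLPF, MYL2, TPM3 and MYL1 changed the sign of their log2 change with quantile normalization, under which NEB passed (-0.49). The causes of these changes were not tested. Counts of MYBPHL and TNNT2 are low, which adds counting error to their values. The age and steer number terms rest on 6 steers, and the sources used here do not explain that number. With the number before the hyphen as a term, XIRP1 and MYOZ3 gained an unadjusted p below 0.05 and KLHL41 lost it.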
